A study of Mus musculus with 6 samples.

Results

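Mitochondria form a network that is cut and rejoined all the time. Cutting, or fission, needs DNM1L, a dynamin GTPase also called DRP1, which is drawn from the cytosol to receptors in the outer membrane, among them MFF, MIEF1 and FIS1, and then squeezes the organelle apart. Joining, or fusion, needs the mitofusins MFN1 and MFN2 in the outer membrane and OPA1 in the inner membrane. FIS1 is a small tail-anchored protein that is also known for recruiting a Rab GTPase-activating protein at contacts with lysosomes.

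The loci of these 7 genes were taken from the event tables by their human Ensembl identifiers, out of 15234 loci in the whole series. They held 213 of the series' 175743 transcript events. FIS1 (ENSG00000214253) was picked because its locus value was higher in all ZLD1039 tumours, with no numeric threshold, so all FIS1 differences below are descriptions without a test. The other 6 genes, its partners here, were chosen for what they do, with earlier results of these data known. Their differences were tested.

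A375, an established line of human melanoma cells labelled wild type, was grown as tumours under the skin of BALB/c nude mice, which were sampled on day 27. In the ZLD1039 group, mice received ZLD1039, an inhibitor of the histone methyltransferase EZH2, at 100 mg/kg by daily oral gavage, and 3 tumours were sequenced. In the vehicle group, mice received vehicle by the same route, and 3 tumours were sequenced. Nude mice lack mature T cells but keep other immune cells and stroma. The groups held 5 mice each, and the labels leave unsaid whether every tumour is from its own mouse. The p-values therefore measure only the spread among the sequenced tumours, which may be technical.

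Each table lists, for 1 tumour, transcript starts, transcript ends, exons included or skipped and introns retained or spliced, each with its abundance in FPKM, fragments scaled to transcript length and to library size. The number of events listed ran from 117347 to 126622 per tumour; the depth in reads is unknown. The positions are human, with chromosome 1 reaching 249214145, while the labels name mouse and mm10, so positions are given as in the tables, with the build not stated. ZLD1039 tumour 2 stood apart, at 51.9 on the first principal component of the loci (34.2% of the variance) against -13.3 to -4.02 for the other tumours. Of 9 melanoma marker genes, 6 were listed and 3 were not. Their summed abundance ran from 45.6 to 82.7 FPKM in ZLD1039 tumours and from 82.2 to 104.7 FPKM in vehicle tumours. The main SOX10 locus had 50.2, 21.8 and 21.3 FPKM in ZLD1039 tumours, against 48.8, 56.0 and 70.0 FPKM in vehicle tumours. CSPG4 had 24.7, 18.7 and 24.2 FPKM in ZLD1039 tumours, against 25.6, 27.8 and 21.2 FPKM in vehicle tumours. Both overlapped, and every other marker locus was at most 8.98 FPKM, so these sums describe little but SOX10 and CSPG4. Of 7 leukocyte, endothelial and fibroblast markers, 4 were listed and 3 were not. Their sums were 673.7 to 924.1 FPKM in ZLD1039 tumours and 635.8 to 794.8 FPKM in vehicle tumours. Of each sum, 98.9% to 99.98% came from 1 locus, that of CD68 (ENSG00000129226). COL1A1, COL1A2 and LUM were at most 4.65 FPKM in any tumour, so the sums describe little but CD68. These are human loci, and the part of mouse host cells in their values is unknown. The part of cell content in the results below was not tested, and in bulk tumours fewer cells of a type and less RNA per cell cannot be told apart.

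A locus was given the highest of its summed starts, its summed ends and its strongest single event. FIS1 had 75.3, 65.5 and 78.4 FPKM in ZLD1039 tumours 1 to 3, against 24.1, 17.5 and 20.4 FPKM in vehicle tumours 1 to 3. The means were 73.1 ± 6.75 FPKM in ZLD1039 tumours and 20.7 ± 3.32 FPKM in vehicle tumours (SD, n = 3 each), a ratio of 3.53 and a difference of 1.78 on the log2(FPKM + 1) scale. All 3 ZLD1039 tumours lay above all 3 vehicle tumours, which is what the gene was picked for. Without ZLD1039 tumour 2, the difference was 1.85 on the same scale. Over all 10834 loci tested, 10.9% did not overlap between the groups and 0.0185% passed an adjusted p of 0.05.

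**Figure D1:**
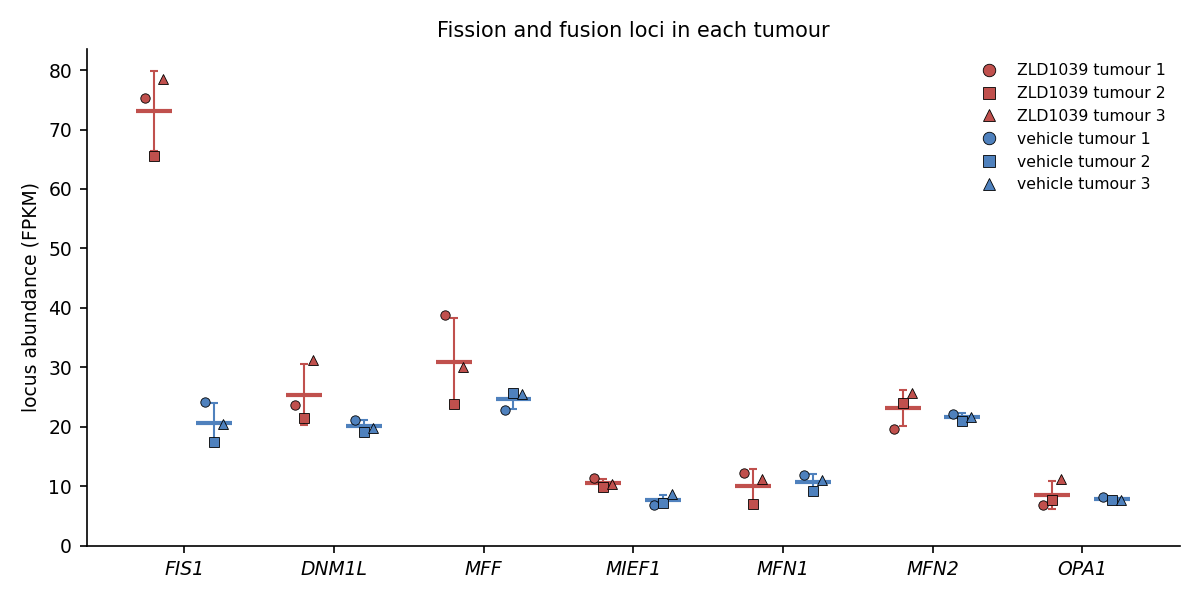
Locus abundance in FPKM (vertical axis) of the 7 fission and fusion genes in each tumour, with ZLD1039 tumours in red left of vehicle tumours in blue; the thick line is the mean and the bar 1 SD (n = 3). FIS1 sits between 65.5 and 78.4 FPKM in ZLD1039 tumours and between 17.5 and 24.1 FPKM in vehicle tumours, while the partners' groups lie close together.

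In ZLD1039 tumours, FIS1 was the most abundant of the 7 per length, followed by MFF at 30.9 ± 7.51, DNM1L at 25.4 ± 5.15 and MFN2 at 23.1 ± 3.08 FPKM, whose ranges overlapped. MIEF1 at 10.5 ± 0.751, MFN1 at 10.1 ± 2.80 and OPA1 at 8.53 ± 2.34 FPKM followed, again with overlapping ranges (SD, n = 3). In vehicle tumours the order began with MFF at 24.6 ± 1.61 FPKM, followed by MFN2 at 21.6 ± 0.662, FIS1 at 20.7 ± 3.32 and DNM1L at 20.1 ± 1.03 FPKM, and FIS1 did not stand apart from these neighbours. MFN1 at 10.7 ± 1.37, OPA1 at 7.86 ± 0.318 and MIEF1 at 7.597 ± 1.01 FPKM came last, and OPA1 and MIEF1 overlapped.

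The FIS1 locus lies on the minus strand of chromosome 7, from 100875373 to 100895597, and held 38 events, 8 of them starts and 2 of them ends. Of these events, 29 reached a group mean of 1 FPKM and so passed the filter, and 4 of those 29 did not overlap between the groups, all higher in ZLD1039 tumours. The background was 10.3% of all events tested; since the gene was picked by this contrast, nothing is read from the count. The 4 events are the main start, an internal exon of 106 bases, and an exon of 133 bases listed under exact and approximate matching with the same values.

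Most of the FIS1 difference was at 1 start. The main start, with its exon at 100888241 to 100888366, had 69.7, 54.1 and 72.0 FPKM in ZLD1039 tumours 1 to 3, against 2.10, 9.59 and 13.5 FPKM in vehicle tumours 1 to 3. It made up 92.6%, 82.5% and 91.8% of the summed starts in ZLD1039 tumours, against 8.70%, 72.9% and 73.9% in vehicle tumours. The groups did not overlap on either measure, and vehicle tumour 1 stood far below vehicle tumours 2 and 3 in its share. Of 5 start shares of the locus that passed the filter, 3 did not overlap, against a background of 8.07%. The shares of the farthest upstream start and the downstream start, described below, were wholly lower in ZLD1039 tumours. Shares of 1 locus trade off against each other, and the gene was picked by this contrast, so nothing is read from the count.

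In FPKM, the starts farther upstream did not follow the pattern of the main start. The farthest, at 100895176 to 100895597 and 7231 bases upstream of the main start, had 3.96, 4.24 and 4.30 FPKM in ZLD1039 tumours, against 12.6, 1.51 and 3.24 FPKM in vehicle tumours. Another, 3578 bases upstream at 100891407 to 100891944, was at 7.62 FPKM in vehicle tumour 1 and listed in none of the other 5 tumours. In vehicle tumour 1, these starts made up 52.3% and 31.6% of the summed starts, so that tumour's FIS1 transcripts were assigned mainly to starts outside the usual first exon.

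Downstream of the last FIS1 exons, the locus goes on. A further start lies 6265 bases downstream of the main start, at 100881219 to 100882101, and had 1.61, 2.79 and 2.14 FPKM in ZLD1039 tumours, against 1.56, 1.90 and 1.53 FPKM in vehicle tumours. The 4 remaining starts summed to 4.40 FPKM in ZLD1039 tumour 2 and to at most 0.248 FPKM elsewhere. From background knowledge of the human genome, the claudin gene CLDN15 lies just downstream of FIS1 on the same strand; the tables assign all events here to the FIS1 identifier and list no locus of its own for it.

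**Figure D2:**
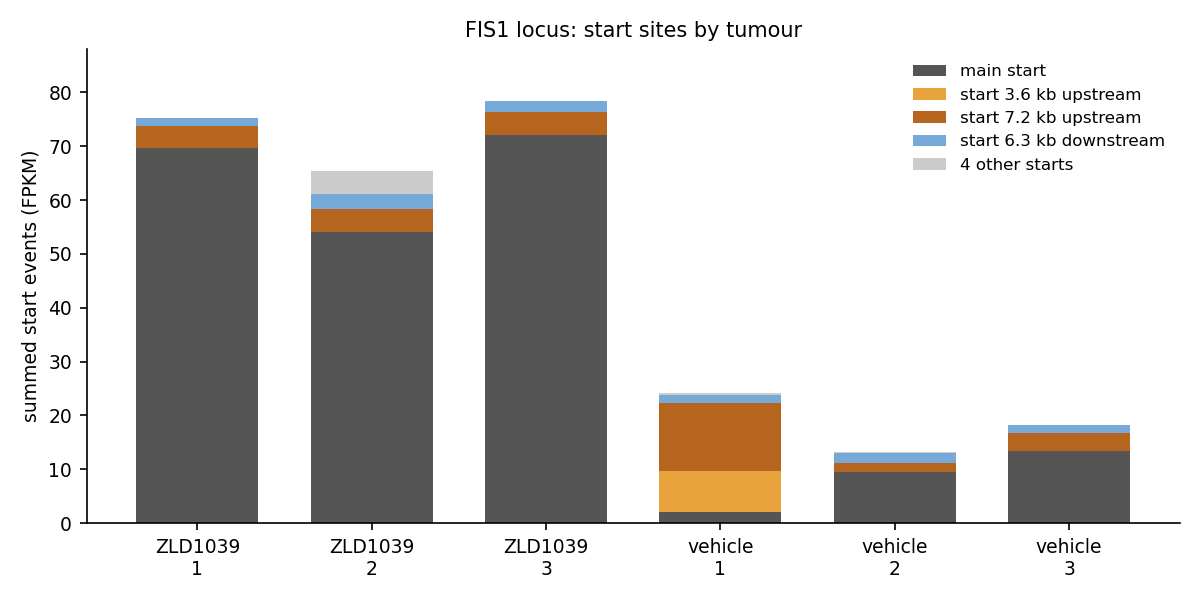
Summed start events of the FIS1 locus in FPKM (vertical axis), stacked by start site, in the 3 ZLD1039 tumours (left) and the 3 vehicle tumours (right). The main start gives 54.1 to 72.0 FPKM in ZLD1039 tumours and 2.10 to 13.5 FPKM in vehicle tumours, where vehicle tumour 1 is carried by the upstream starts.

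The upstream exons showed the same difference as the starts. Both rest on the same transcripts, so the exons are not separate evidence. The 106-base exon, at 100883423 to 100883528, was never skipped and had 73.7, 62.7 and 76.3 FPKM in ZLD1039 tumours, against 22.6, 11.3 and 16.7 FPKM in vehicle tumours. To 3 significant digits, these values equal the sum of all starts other than the downstream one in every tumour. The means were 70.9 ± 7.21 FPKM in ZLD1039 tumours and 16.9 ± 5.67 FPKM in vehicle tumours (SD, n = 3 each).

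The 133-base exon, at 100887288 to 100887420, was listed with more than 1 join. Joined to the inner edge of the main first exon, it had 69.7, 54.01 and 72.0 FPKM in ZLD1039 tumours, against 9.69, 9.47 and 13.5 FPKM in vehicle tumours. In vehicle tumour 1 this is more than the 2.10 FPKM of the main start, so transcripts of another start carry the same join there. Joined to the farthest upstream start, it had 2.14, 2.02 and 0.928 FPKM in ZLD1039 tumours, against 12.6, 0 and 0.402 FPKM in vehicle tumours. Counting both joins, its inclusion was 97.5%, 96.1% and 95.5% in ZLD1039 tumours, against 99.8%, 85.3% and 82.9% in vehicle tumours, and the groups overlapped because of vehicle tumour 1. The skipped form was at 1.85, 2.26 and 3.40 FPKM in ZLD1039 tumours, against 0.0374, 1.64 and 2.86 FPKM in vehicle tumours, so the skipped form overlapped while the included form did not.

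The ends of the locus did not show the difference. Summed ends were 9.53, 13.9 and 8.22 FPKM in ZLD1039 tumours, against 9.72, 17.5 and 20.4 FPKM in vehicle tumours, a log2 difference of -0.52. The far end, at 100875373 to 100875796, had 9.19, 9.64 and 8.005 FPKM in ZLD1039 tumours and 8.56, 6.61 and 7.26 FPKM in vehicle tumours. The near end, at 100877050 to 100877723, had 0.339, 4.24 and 0.218 FPKM in ZLD1039 tumours, against 1.16, 10.9 and 13.2 FPKM in vehicle tumours. Both ends lie downstream of the downstream start, and no end was listed next to the FIS1 exons themselves.

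Starts therefore exceeded ends by 65.8, 51.6 and 70.2 FPKM in ZLD1039 tumours, against 14.4, -4.37 and -2.18 FPKM in vehicle tumours. An incomplete list of ends was common in these tables. Of the 10834 loci tested, 13.8% listed no end at all, and 39.9% had mean summed ends under 0.5 times the mean summed starts. These means are over all tumours, so they give no background for a gap that differs between the groups. In vehicle tumours 2 and 3 the locus value used above is the summed ends; with summed starts in all tumours, the means were 73.1 ± 6.75 FPKM in ZLD1039 tumours and 18.5 ± 5.50 FPKM in vehicle tumours (SD, n = 3 each).

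An unspliced block of 2539 bases, from 100880646 to 100883184, linked the upstream exons to the downstream stretch. It was listed in vehicle tumours 2 and 3, at 9.40 and 13.1 FPKM, and in no ZLD1039 tumour nor in vehicle tumour 1. Set against the 106-base exon, the block reached 83.6% in vehicle tumour 2 and 78.01% in vehicle tumour 3. Most of the FIS1 signal in those tumours was thus assigned to transcripts that ran through into the downstream stretch. FPKM divides fragments by transcript length, so the same fragments give a lower FPKM on a longer transcript; the part of this in the vehicle values was not tested.

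Of 3 inclusion values of the FIS1 locus that passed the filter, 1 did not overlap between the groups, against a background of 7.12%. Since the gene was picked by this contrast, nothing is read from the count. The value is that of an exon of 140 bases in the downstream stretch, at 100880028 to 100880167. This exon was included in 20.8%, 30.6% and 21.2% of the signal in ZLD1039 tumours, against 33.6%, 62.3% and 64.5% in vehicle tumours. Its included form was highest in vehicle tumours 2 and 3, at 10.9 and 13.2 FPKM, the values of the near end there. Its skipped form was at 7.55, 9.64 and 6.48 FPKM in ZLD1039 tumours and 6.46, 6.61 and 7.26 FPKM in vehicle tumours, and overlapped. The intron of 1365 bases next to the far end was retained in 77.9%, 62.8% and 66.0% of the signal in ZLD1039 tumours and in 56.9%, 70.7% and 77.8% in vehicle tumours, with full overlap.

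**Figure D3:**
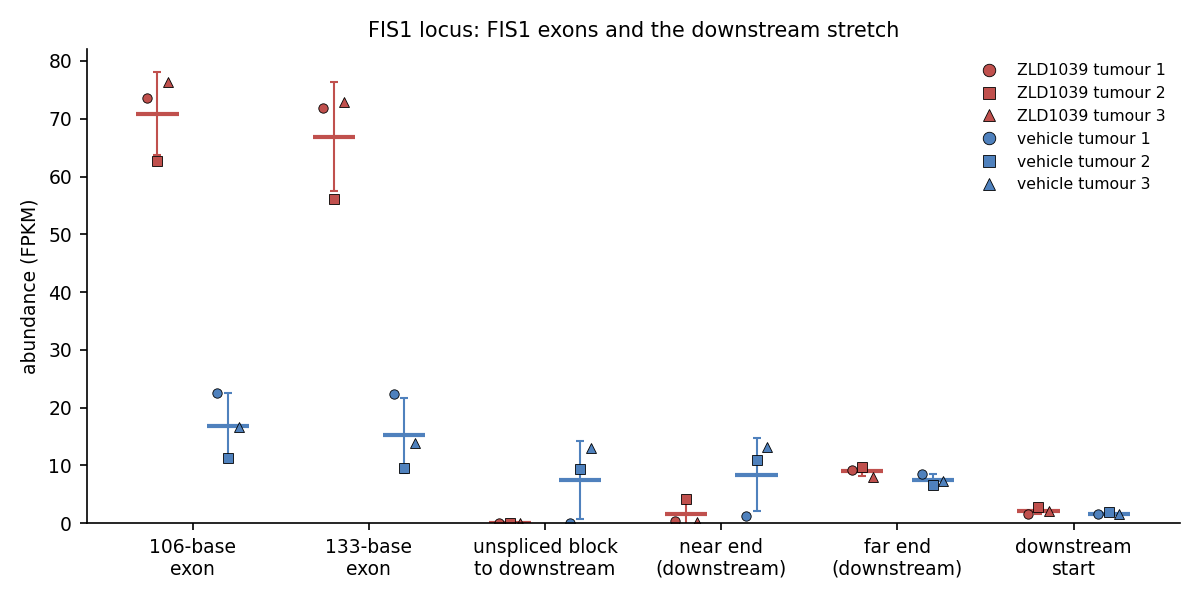
Abundance in FPKM (vertical axis) of 6 parts of the FIS1 locus in each tumour, ordered from the FIS1 exons to the downstream stretch, with ZLD1039 tumours in red left of vehicle tumours in blue; the thick line is the mean and the bar 1 SD (n = 3). The 106-base and 133-base exons separate the groups, the unspliced block appears in vehicle tumours 2 and 3 alone, and the far end and the downstream start lie at 8.94 and 2.18 FPKM on average in ZLD1039 tumours and 7.47 and 1.66 FPKM in vehicle tumours.

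No neighbour of FIS1 was called. Within 100000 bases on chromosome 7 lay 7 other loci, of which 6 were tested and 0 called by limma with Benjamini-Hochberg adjustment (1 at an unadjusted p under 0.05), against 0.0185% and 4.94% of all loci tested. Their log2 differences ran from -1.08 to 0.131, with a median of -0.28. The lowest, the locus of ENSG00000106366, had 245.9, 91.4 and 137.6 FPKM in ZLD1039 tumours, against 326.8, 311.4 and 293.8 FPKM in vehicle tumours, with an unadjusted p of 0.0113 and an adjusted p of 0.881. It was the 1 neighbour whose groups did not overlap, against a background of 10.9%.

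None of the 6 partner loci passed the test, with 1 at an unadjusted p under 0.05 (background 4.94%) and 2, DNM1L and MIEF1, wholly above the vehicle tumours (background 5.75%). The partners' 84 events that passed the filter, of 175 in all, gave 0 calls by limma with Benjamini-Hochberg adjustment (smallest adjusted p 0.855). At an unadjusted p under 0.05 there were 6 events, all of them in MFF. The background was 0.0362% of all events tested called and 4.7% at that unadjusted p. Of the 84 events, 28 lay wholly above and 5 wholly below the vehicle tumours in ZLD1039 tumours, against a background of 5.36% above and 4.97% below. Events of 1 locus share transcripts, and 18 of the 28 were events of DNM1L, most of which have values close to those of its main start.

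DNM1L (ENSG00000087470), the GTPase that cuts, spans 32832134 to 32898486 on the plus strand of chromosome 12. It had 23.6, 21.4 and 31.2 FPKM in ZLD1039 tumours, against 21.2, 19.2 and 19.8 FPKM in vehicle tumours. The ZLD1039 tumours lay just above the vehicle tumours, with a log2 difference of 0.31 (95% interval -0.11 to 0.73, adjusted p = 0.881, limma). Without ZLD1039 tumour 3 the difference was 0.158. With summed ends as the locus value it was 0.0941, and the groups overlapped. Most of the excess of ZLD1039 tumour 3 over the other tumours came from an internal start at 32866181 to 32866305. That start had 9.56 FPKM in ZLD1039 tumour 3 and at most 0.275 FPKM in any other tumour. The main start, at 32832134 to 32832399, had 22.1, 20.8 and 21.1 FPKM in ZLD1039 tumours and 20.5, 18.6 and 19.03 FPKM in vehicle tumours.

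MFF (ENSG00000168958), the main DNM1L receptor in mammalian cells, spans 228189867 to 228222550 on the plus strand of chromosome 2. It had 38.7, 23.8 and 30.1 FPKM in ZLD1039 tumours, against 22.8, 25.6 and 25.5 FPKM in vehicle tumours. The groups overlapped through ZLD1039 tumour 2, with a log2 difference of 0.29 (95% interval -0.18 to 0.76, adjusted p = 0.881, limma); without ZLD1039 tumour 1 it was 0.117. An internal start at 228205008 to 228205096 gave 10.9 FPKM in ZLD1039 tumour 1 and between 0.0482 and 0.0681 FPKM in the other 5 tumours. The main start had 27.8, 23.4 and 29.7 FPKM in ZLD1039 tumours and 22.4, 25.3 and 25.3 FPKM in vehicle tumours.

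MIEF1 (ENSG00000100335), an outer membrane protein also called MiD51 that binds DNM1L, spans 39898216 to 39908499 on the plus strand of chromosome 22. It had 11.3, 9.84 and 10.4 FPKM in ZLD1039 tumours, against 6.82, 7.24 and 8.73 FPKM in vehicle tumours. All ZLD1039 tumours lay above all vehicle tumours, at a mean of 10.5 ± 0.751 FPKM in ZLD1039 tumours and 7.597 ± 1.01 FPKM in vehicle tumours (SD, n = 3 each). The log2 difference was 0.43 ± 0.16 (SE; 95% interval 0.05 to 0.80), with an unadjusted p of 0.0304 and an adjusted p of 0.881 by limma, so it did not pass. Over all loci, 4.94% had an unadjusted p under 0.05 and 5.75% lay wholly above in ZLD1039 tumours.

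**Figure D4:**
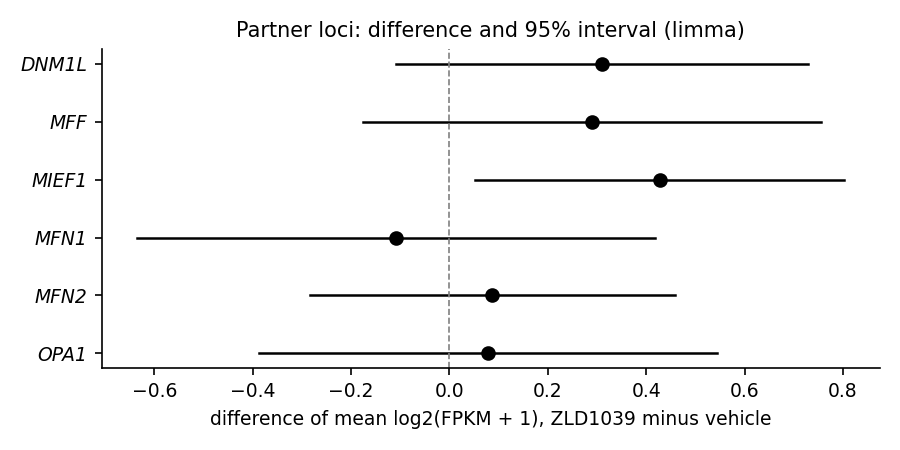
Difference of mean log2(FPKM + 1), ZLD1039 minus vehicle (horizontal axis), of the 6 partner loci, with the 95% interval of the limma fit (n = 3 each). The MIEF1 interval, 0.05 to 0.80, lies above 0, those of the other 5 loci span 0, and no adjusted p is below 0.881.

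The fusion genes lay close to 0. MFN1 (ENSG00000171109, chromosome 3, 179065480 to 179111006, plus strand) had 12.2, 6.93 and 11.2 FPKM in ZLD1039 tumours, against 11.9, 9.24 and 11.1 FPKM in vehicle tumours, a log2 difference of -0.11 (95% interval -0.63 to 0.42). MFN2 (ENSG00000116688, chromosome 1, 12040238 to 12073571, plus strand) had 19.7, 24.1 and 25.6 FPKM in ZLD1039 tumours, against 22.2, 20.9 and 21.7 FPKM in vehicle tumours, a log2 difference of 0.09 (95% interval -0.28 to 0.46). OPA1 (ENSG00000198836, chromosome 3, 193310933 to 193409921, plus strand) had 6.79, 7.61 and 11.2 FPKM in ZLD1039 tumours, against 8.22, 7.62 and 7.74 FPKM in vehicle tumours, a log2 difference of 0.08 (95% interval -0.39 to 0.54). All 3 overlapped between the groups, with adjusted p-values of 0.941, 0.931 and 0.954 by limma. Without ZLD1039 tumour 2 the MFN1 difference was 0.117, and without ZLD1039 tumour 3 the OPA1 difference was -0.113.

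MFN1 showed start and exon values in single tumours only. Its first start had 5.77, 6.44 and 10.3 FPKM in ZLD1039 tumours and 10.7, 8.83 and 10.4 FPKM in vehicle tumours. A second start at 179066549 to 179066751 had 6.16 FPKM in ZLD1039 tumour 1 and at most 0.231 FPKM elsewhere. An exon of 127 bases, at 179094830 to 179094956, was skipped at 7.40 FPKM in vehicle tumour 3 and in no other tumour, where its inclusion was 100.0%.

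Inclusion, the FPKM with an exon over the FPKM with plus without it, was tested for 21 exons, runs of exons or introns of the partners, of 61 in all. None was called (smallest adjusted p 0.719, limma with Benjamini-Hochberg adjustment; 1 at an unadjusted p under 0.05). Over all 13274 tested, 0 were called and 2.09% had such a p. Of the partners' 21, 5 did not overlap between the groups, all of them in MFF, against a background of 7.12%. The 1 with the unadjusted p under 0.05 is also among the 5. It is an exon of 221 bases that passed the filter only through ZLD1039 tumours 1 and 3, as described below.

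These 5 MFF values come from a pair of places. The first is a run of exons of 159 and 60 bases, from 228211942 to 228217289. Its inclusion was 28.8%, 32.7% and 34.0% in ZLD1039 tumours, against 51.3%, 54.2% and 57.1% in vehicle tumours. The groups were well apart and tight within, but the difference of -22.4 percentage points had a 95% interval of -63.2 to 18.4 and an adjusted p of 0.719 in limma, whose error is shared over all exons. The run and its exons taken singly rest on the same transcripts.

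Transcripts without either of these MFF exons had 27.0, 15.2 and 19.3 FPKM in ZLD1039 tumours, against 10.9, 11.2 and 10.6 FPKM in vehicle tumours. Transcripts with both had 10.9, 7.36 and 9.97 FPKM in ZLD1039 tumours, against 11.5, 13.3 and 14.1 FPKM in vehicle tumours. The short form was thus higher and the long form lower in every ZLD1039 tumour than in any vehicle tumour. In ZLD1039 tumour 1, the 159-base exon in all its forms had 10.95 FPKM, the value of the internal start there. The long form of that tumour thus appears to be assigned to the internal start, which was at most 0.0681 FPKM in any other tumour. As single events, the skipping had a log2 difference of 0.82 (unadjusted p = 0.0105, adjusted p = 0.855) and the inclusion one of -0.43 (adjusted p = 0.855) by limma. The short form made 70.1%, 64.8% and 65.2% of MFF in ZLD1039 tumours, against 48.2%, 44.2% and 41.8% in vehicle tumours.

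The second place in MFF lies near the start. An exon of 112 bases, at 228193394 to 228193505, was included in 75.1%, 98.7% and 73.6% of the signal in ZLD1039 tumours, against 99.3%, 99.7% and 99.6% in vehicle tumours. Transcripts without it had 6.73, 0.285 and 7.70 FPKM in ZLD1039 tumours, against 0.163, 0.0861 and 0.111 FPKM in vehicle tumours, so ZLD1039 tumours 1 and 3 carry the difference. The difference of -17.0 percentage points had a 95% interval of -34.5 to 0.502 and an adjusted p of 0.719 (limma). The same transcripts carry an exon of 221 bases, at 228195342 to 228195562, with an inclusion of 99.6%, 91.8% and 98.1% in ZLD1039 tumours and 84.9%, 79.2% and 87.1% in vehicle tumours (unadjusted p = 0.0267, adjusted p = 0.719, limma), on a total of only 2.56 FPKM.

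DNM1L has alternative exons in its variable domain, which changes its affinity for membranes and the cytoskeleton. The exon of 78 bases, at 32890799 to 32890876, was included in 11.03%, 10.98% and 16.3% of the signal in ZLD1039 tumours, against 5.34%, 11.6% and 10.0% in vehicle tumours. Its difference was 3.78 percentage points (95% interval -7.07 to 14.6, adjusted p = 0.741, limma), and 1.95 without vehicle tumour 1 or 2.01 without ZLD1039 tumour 3. The exon of 33 bases, at 32891198 to 32891230, was included in 43.5%, 65.2% and 56.0% in ZLD1039 tumours, against 31.1%, 70.3% and 67.7% in vehicle tumours. Its difference was -1.42 percentage points (95% interval -51.3 to 48.5, adjusted p = 0.997, limma), and its interval leaves room for large changes in either direction.

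Taken as whole forms, DNM1L with the 33-base exon alone had 9.56, 13.5 and 14.2 FPKM in ZLD1039 tumours and 6.35, 12.99 and 12.9 FPKM in vehicle tumours. The form with neither exon had 9.99, 4.93 and 11.3 FPKM in ZLD1039 tumours and 13.1, 3.49 and 4.24 FPKM in vehicle tumours, and led in tumour 1 of each group. The form with the 78-base exon alone had 2.42, 2.27 and 2.10 FPKM in ZLD1039 tumours, all above the 0.972, 2.00 and 1.91 FPKM in vehicle tumours. The form with both was at 2.88 FPKM in ZLD1039 tumour 3, the tumour with the internal start, and at most 0.0033 FPKM elsewhere. An upstream exon of 39 bases, at 32858759 to 32858797, was at 0% in all 6 tumours.

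OPA1 carries alternative exons near its start that help set which protease cleaves the protein into short forms. The exon of 108 bases, at 193334967 to 193335074, was included in 74.6%, 93.8% and 84.6% of the signal in ZLD1039 tumours, against 95.6%, 93.0% and 82.5% in vehicle tumours (difference -6.05 percentage points, 95% interval -23.0 to 10.9). The exon of 54 bases, at 193335573 to 193335626, was included in 21.2%, 67.2% and 30.6% in ZLD1039 tumours, against 60.6%, 31.3% and 75.99% in vehicle tumours (difference -16.3 percentage points, 95% interval -72.6 to 39.98). The exon of 111 bases, at 193343881 to 193343991, was included in 82.9%, 63.4% and 28.7% in ZLD1039 tumours, against 77.8%, 25.4% and 46.9% in vehicle tumours (difference 8.29 percentage points, 95% interval -51.5 to 68.0). The 3 adjusted p-values were 0.735, 0.794 and 0.932 (limma), and tumours of 1 group differed from each other more than the groups did. Leaving out 1 tumour gave differences from -10.8 (without ZLD1039 tumour 2) to -1.17 (without ZLD1039 tumour 1) percentage points for the 108-base exon. For the 54-base exon it gave -30.1 (without ZLD1039 tumour 2) to -6.3 (without vehicle tumour 3).

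In whole forms, OPA1 with the 108-base and 54-base exons both had 1.40, 4.99 and 3.38 FPKM in ZLD1039 tumours and 4.84, 2.35 and 5.81 FPKM in vehicle tumours. With the 108-base exon alone it had 3.53, 1.97 and 5.97 FPKM in ZLD1039 tumours and 2.80, 4.63 and 0.495 FPKM in vehicle tumours. With neither it had 1.68, 0.462 and 1.70 FPKM in ZLD1039 tumours and 0.349, 0.523 and 1.34 FPKM in vehicle tumours. The form with the 54-base exon alone was not listed. The 108-base exon alone led in ZLD1039 tumours 1 and 3 and in vehicle tumour 2, and both exons together led in ZLD1039 tumour 2 and in vehicle tumours 1 and 3.

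**Figure D5:**
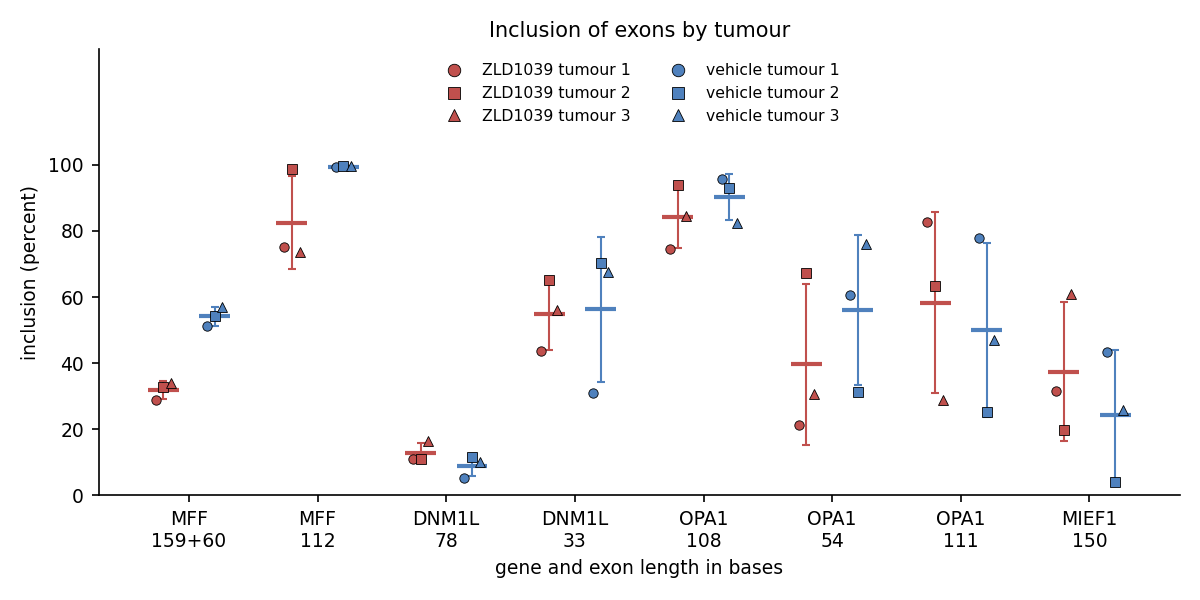
Inclusion in percent (vertical axis) of 8 exons or runs of exons of the partners, named by gene and length in bases, in each tumour, with ZLD1039 tumours in red left of vehicle tumours in blue; the thick line is the mean and the bar 1 SD (n = 3). The MFF run of 159 and 60 bases lies at 28.8% to 34.0% in ZLD1039 tumours and at 51.3% to 57.1% in vehicle tumours, and the DNM1L, OPA1 and MIEF1 exons overlap.

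MIEF1 and MFN2 had 1 variable exon each that overlapped between the groups. The MIEF1 exon of 150 bases, at 39905427 to 39905576, was included in 31.7%, 19.8% and 60.9% of the signal in ZLD1039 tumours and in 43.2%, 4.07% and 25.7% in vehicle tumours (adjusted p = 0.781, limma). The MFN2 exon of 145 bases, at 12042027 to 12042171, was included in 88.6%, 99.7% and 87.9% in ZLD1039 tumours and in 80.8%, 100.0% and 98.97% in vehicle tumours (adjusted p = 0.978, limma). Of 29 starts of the partners with a share, 10 were tested, 0 were called (smallest adjusted p 0.764, limma, and 0 at an unadjusted p under 0.05, against a background of 2.49%) and 0 did not overlap, against a background of 8.07% without overlap. No end share of a partner passed the filter: MIEF1 listed no end, and the OPA1 ends summed to at most 0.126 FPKM.

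Other genes of the pathway were taken from lists of Ensembl identifiers, for which the tables give no names. Of all loci tested, 0.0185% passed and 4.94% had an unadjusted p under 0.05. Of 12 other fission genes, all were listed and tested and 0 passed in either direction (limma; 0 at an unadjusted p under 0.05), with a median log2 difference of 0.11 (range -0.28 to 0.54). Of 13 other genes of fusion and the inner membrane, 11 were listed and tested and 0 passed (2 at an unadjusted p under 0.05), with a median of 0.18 (range -0.65 to 0.75). Of 5 genes that turn over fission and fusion proteins, 4 were tested and 0 passed (0 at an unadjusted p under 0.05), with a median of 0.10. Of 9 genes that mark mitochondrial content, 8 were tested and 0 passed (0 at an unadjusted p under 0.05), with a median of 0.19 and summed levels of 685.5 to 947.9 FPKM in ZLD1039 tumours and 658.6 to 712.7 FPKM in vehicle tumours. The median of all loci tested was 0.02, and that of the 7 members, FIS1 included, was 0.29.

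Over the 6 tumours, 141 of 10705 loci with an Ensembl identifier had a Pearson correlation with FIS1 beyond 0.9 in either direction, on log2(FPKM + 1). The points share their groups, which FIS1 was picked to separate, so this is a description only. The most alike was ENSG00000136940, at r = 0.973, with 5.66, 5.65 and 6.48 FPKM in ZLD1039 tumours, against 4.32, 4.12 and 4.27 FPKM in vehicle tumours. The next was ENSG00000126216, at r = 0.972, with 11.4, 11.2 and 11.4 FPKM in ZLD1039 tumours, against 9.43, 9.70 and 9.60 FPKM in vehicle tumours. Both differed far less in size than FIS1, at log2 differences of 0.40 and 0.22.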

How the data were processed

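The authors deposited 1 table of transcript events per tumour with an FPKM value for each event, per the file headers. Per the labels' protocols, mRNA was bead-purified from the tumours and made into libraries with a SMARTer kit. Per the submitters' processing notes, the tools were HTSeq 0.6.1 and bcl2fastq 2.17.1.14 and the build mm10. The aligner, assembler and event lister: not given in the sources used here. A mouse reference was at hand and was left unused.

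Exact repeats of rows (27205) were dropped, and an event not listed in a tumour counted as 0. Loci, events and shares were fitted over the whole table with limma 3.58.1 in R 4.3.3 with a mean-variance trend, two-sided, with Benjamini-Hochberg adjustment at 0.05. Abundance was fitted as log2(FPKM + 1), which understates changes of low values, after a filter of a mean of 1 FPKM in at least 1 group. Inclusion and site shares, in percent of the deposited FPKM, needed a mean total of 1 FPKM, a total above 0 in all 6 tumours and a mean share between 1% and 99%; exact event kinds were used. The fits were tested on simulated data. Depth is unknown, so no counting interval is given.

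The members and gene lists were chosen with earlier results of these data known. The named loci are the 7 members, their events at a mean of 5 FPKM or more in a group or with the largest differences in share, the neighbour without overlap (chosen after its values were seen) and the loci most correlated with FIS1. Alternatives were other pseudocounts, filters, locus values, scalings, no trend, a replicate block and leaving out each tumour.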

Additional observations from a re-analysis of the deposited data

How the results depend on the processing

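The number of loci called was 2 of 10834. It was 1 with a pseudocount of 0.1, with the largest event as the locus value, with median-of-ratios scaling, with quantile normalization and with no trend. It was 0 with no filter, with a filter of 5 FPKM and with summed starts. The 2 main calls were higher in ZLD1039 tumours. When 1 tumour was left out there were 0 to 2 calls, all of them lower in ZLD1039 tumours, so neither main call held. The number of events called was 30, against 3 with no filter, 60 with no trend and 0 to 27 when 1 tumour was left out (0 without ZLD1039 tumour 2). Inclusion gave 0 calls, against 3 on a log2 ratio scale and 15 with no trend; start shares gave 0, against 1 and 11, and end shares 0, against 2 and 7. The cause of these changes was not tested. Of the partners' loci, events, inclusion values and start shares tested, 0 were called under each alternative run.

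With the replicate number as a block, 0 loci, 0 events and 0 shares of any kind were called. Same-numbered tumours correlated at -0.032, 0.02 and -0.061 in their deviations from the group means. Tumours of different number in the 2 groups correlated at -0.063 to 0.105. The values show no pairing by number, but 3 tumours per group cannot settle whether the numbers stand for a shared batch.

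The FIS1 log2 difference was -0.52 with summed ends, a form in which the listed ends all lie in the downstream stretch, and 2.06 with the largest event; it was 1.67 to 1.89 when 1 tumour was left out. Leaving out 1 tumour gave -0.252 to 0.117 for MFN1 and -0.113 to 0.21 for OPA1. It gave -14.1 to 5.54 percentage points for the DNM1L 33-base exon, -4.04 to 23.1 for the OPA1 111-base exon, 1.39 to 22.5 for the MIEF1 150-base exon and -7.41 to 2.22 for the MFN2 145-base exon. The MFF run stayed at -23.8 to -20.9 percentage points, with adjusted p-values of 0.253 to 0.919 over its alternatives, and MIEF1 at 0.362 to 0.52 with 0.586 to 0.997. MIEF1 and OPA1 gave no value with summed ends. The depth in reads is unknown and limits what can be said of events near 0 FPKM.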
